A study of Sus scrofa with 20 samples.

Results

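FOS, a gene of the immediate early class, was described in the backfat of 20 pigs of the Italian Large White breed (10 females, 10 castrated males), with 1 poly(A) RNA library per animal. Of 23483 loci in the authors' count and FPKM tables, 1 locus, XLOC_030290 (ENSSSCG00000002383), carried the identifier that maps to FOS. The animals weighed 150 to 160 kg at slaughter. Ages ran from 235 to 250 days in females and from 233 to 249 days in castrated males, and no treatment separated the groups. FOS was selected on its level and its spread over these same libraries and on the genes that follow or oppose it. Those quantities are therefore given as a description with no test, and only the contrasts on sex, age and library measures were tested.

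FOS encodes a leucine zipper protein that pairs with JUN proteins to form the transcription factor AP-1. Its transcript is made within minutes of a signal that reaches the nucleus through serum response factor (SRF) with its ternary complex partners or through CREB, needs no new protein synthesis, and is quickly degraded. In fat as in other tissues, growth factors, hormones, stretch, injury and tissue handling are known to switch it on together with EGR1, JUNB, IER2 and DUSP1.

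The libraries held from 25754778 counts (labelled female 10) to 51248122 counts (female 1). At a pair of loci that separated the sexes in the remaining 18 animals, the libraries labelled female 10 and castrated male 10 (animals 516 and 517) went against their labels. The library labelled female 10 had 0.409 CPM (counts scaled to library size with TMM factors) of XLOC_042132, where the 9 other females had 547 to 1233 CPM. The library labelled castrated male 10 had 989 CPM, where the 9 other castrated males had at most 1.87 CPM. The labels were kept, and results are also given without these 2 libraries. Of the 12 fat cell markers listed, 8 had a locus, none of them at 0 in all libraries. Their summed level was 3496 to 6922 raw CPM (scaled to the total count alone) in females, against 2839 to 8044 raw CPM in castrated males.

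FOS was among the most abundant loci of this tissue. In females it had 24722 counts in the lowest library (female 7), a median of 71306 counts and 116937 counts in the highest library (female 9). In castrated males it had 24690 counts in the lowest library (castrated male 10), a median of 82088 counts and 131970 counts in the highest library (castrated male 6). At these counts the 95% Poisson interval was 0.540% to 1.25% of the count on either side, which covers counting error only. Of the 19 neighbouring pairs in the order of FOS level, 2 overlapped within those intervals.

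On the CPM scale FOS ran from 710 CPM (female 7) through a median of 1675 CPM to 3754 CPM (female 9) in females, with a mean of 1894 ± 841 CPM (SD, n = 10). In castrated males it ran from 931 CPM (the library labelled castrated male 10) through a median of 2174 CPM to 3165 CPM (castrated male 4), with a mean of 2187 ± 704 CPM (SD, n = 10). The groups overlapped over nearly their whole ranges, and the lowest and the highest animal were both females. Over all 20 animals the mean was 2040 ± 770 CPM and the highest level was 5.28 times the lowest. FOS ranked 27 among all loci by mean CPM. Per length, the mean was 819 ± 369 FPKM in females and 951 ± 312 FPKM in castrated males (SD, n = 10 each). By FPKM its rank within a library lay between 49 (female 9) and 289 (female 7), with a median of 99.5.

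**Figure D1:**
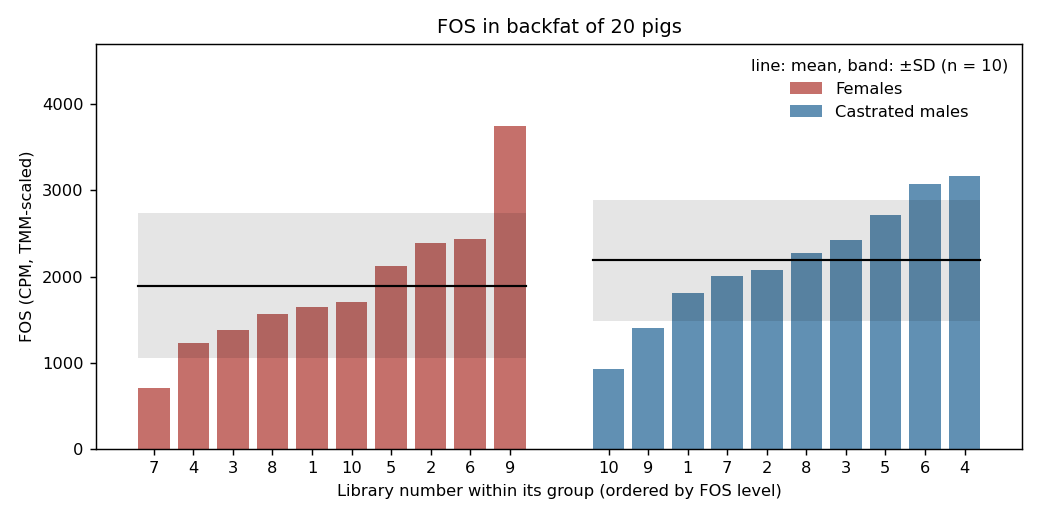
FOS level in CPM (TMM-scaled) for each library, females left and castrated males right, ordered by level within the group and labelled by replicate number; the line is the group mean and the band 1 SD to each side (n = 10 each). Females had 710 to 3754 CPM and castrated males 931 to 3165 CPM, so the groups overlapped.

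The spread of FOS was wide for so abundant a gene. The SD of its log2 CPM over the 20 animals was 0.60. Of 8769 loci that averaged at least 10 CPM, FOS ranked 619 by this SD, and their median SD was 0.26. Among the 90 loci of at least 1000 CPM it ranked 10, against a median SD of 0.29. Animals of the same labelled sex and age still differed. The 4 castrated males aged 241 days had 931 to 3072 CPM, a 3.30-fold range, and the 3 of them without animal 517 had 2002 to 3072 CPM, a 1.53-fold range. The 2 females aged 249 days had 710 and 1560 CPM, the 2 females aged 250 days had 1708 CPM (animal 516) and 2440 CPM, and the 2 castrated males aged 243 days had 2427 and 3165 CPM.

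FOS did not pass the test between the sexes. The log2 difference, females minus castrated males, was -0.21 with an SE of 0.240 (edgeR quasi-likelihood test, Benjamini-Hochberg adjusted p = 0.99996), and the unadjusted p was 0.397. In that fit 0% of 21587 loci were called, 935 had an unadjusted p under 0.05, while 6 were called by DESeq2. Without animals 516 and 517 the log2 difference was -0.28 (adjusted p = 0.9998) in an edgeR fit that called 18 loci. Leaving out 1 library at a time gave -0.37 without female 9 and -0.11 without female 7, so each of these females moved the value by more than 1.5 times.

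Age at slaughter gave no called slope either. With sex in the model the slope of FOS was 0.05 on the log2 scale per 10 days (SE 0.250, edgeR adjusted p = 0.988). In that fit 0% of 21587 loci were called and 1189 had an unadjusted p under 0.05, against 4 called by DESeq2. The sign was not stable: the slope was -0.03 without castrated male 9 and 0.16 without female 2. The correlation of log2 FOS with age, without sex in a model, was r = -0.08 (Spearman's rho = 0.06) over 20 animals, with a permutation p = 0.748.

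Library measures were set against FOS in the same way, making 4 relations with two-sided permutation tests and Benjamini-Hochberg adjustment over the 4. Total count gave r = 0.04 and rho = -0.03 (permutation p = 0.870, adjusted p = 0.870). The number of loci detected gave r = 0.12 and rho = -0.02 (permutation p = 0.614, adjusted p = 0.870). The adjusted p for age was 0.870. None of the 4 relations passed after adjustment.

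The share of counts on 10 loci of mitochondrially encoded protein genes, some of which span several identifiers, ran from 10.6% to 21.7% in females and from 8.49% to 26.3% in castrated males. It gave the strongest of the 4 relations, r = -0.46 and rho = -0.40, with permutation p = 0.0480 for r and an adjusted p = 0.192. Without the 2 libraries farthest from the median share, castrated male 10 and female 3, r was -0.23. Within sex, r was -0.31 in females and -0.67 in castrated males (n = 10 each). Without animals 516 and 517 it was -0.32. Total count showed r = -0.27 in females and 0.69 in castrated males, and loci detected showed r = -0.13 in females and 0.63 in castrated males. The library labelled castrated male 10 was the lowest of its group in FOS, total count and loci detected, and the highest in mitochondrial share. The values within castrated males therefore lean on that library, and they are not given without it. For age, r was -0.26 in females and 0.41 in castrated males. Without the 2 animals farthest from the median, r was 0.09 for total count, -0.02 for loci detected and -0.12 for age. Without animals 516 and 517 it was -0.21 for total count, -0.17 for loci detected and -0.09 for age.

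The locus held 3 isoforms in the authors' isoform table, whose FPKM sum to that of the locus. TCONS_00080149, the isoform that the table ties to the reference transcript ENSSSCT00000002650, made up 74.8% ± 14.4 of the locus FPKM (SD, n = 20). Its share was lowest in castrated male 9, at 50.7%, and highest in castrated male 2, at 96.2%. TCONS_00080147 had no reference transcript in the table. It was listed at 0 in the library labelled female 10 and reached a share of 38.6% in castrated male 9. TCONS_00080148, also without a reference transcript, ran from 1.68% in castrated male 2 to 23.3% in the library labelled castrated male 10. The mix of isoforms thus varied among animals of both sexes, and animals of like FOS level could differ in it. The 5.39-fold range of locus FPKM in females and the 3.40-fold range in castrated males are sums over these isoforms. The split rests on the authors' estimates, for which no read depth is given.

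**Figure D2:**
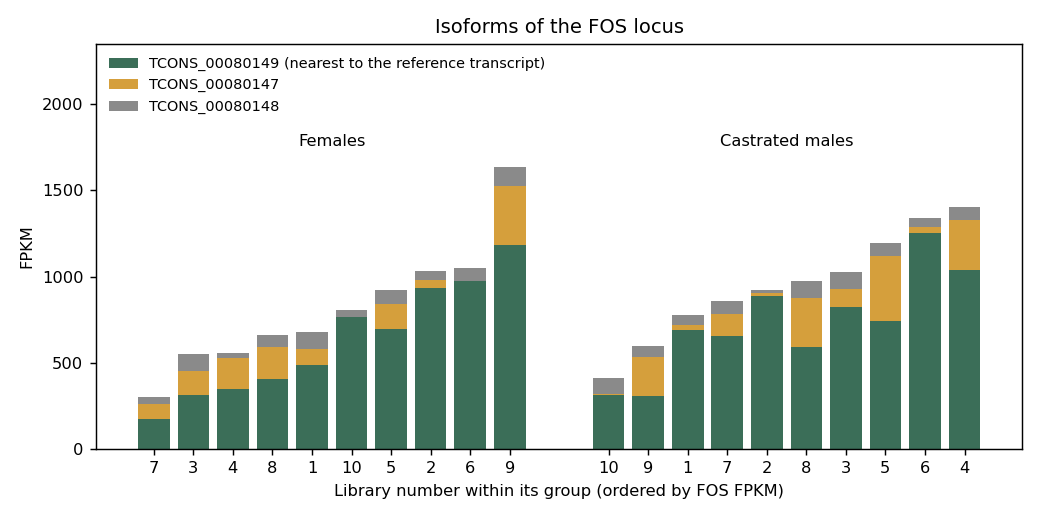
FPKM of the 3 isoforms of the FOS locus, stacked per library, females left and castrated males right, ordered by locus FPKM and labelled by replicate number. TCONS_00080149 was the main isoform on average, at 74.8% of the locus FPKM, and its share was as low as 50.7% in castrated male 9.

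Genes that followed or opposed FOS were found by Pearson's r of log2 CPM (prior count 2) over the 20 libraries. Each locus of mean CPM of at least 5 was set against FOS, 10638 in all, 7155 of them with a gene symbol. Every point in such a correlation shares the library, its depth and its scaling with FOS, and no p is attached. At r of at least 0.7, 113 loci followed FOS, 1.06% of those set against it. At r of -0.7 or below, 49 opposed it, 0.461%. The values just inside the limit were 0.7011 for BOLA1 and 0.7008 for CD2BP2, and those just outside it 0.6996 for CCSER1 and 0.6978 for CCDC71. On the lower side, unnamed loci stood at -0.7012 and -0.7001, and CASP6 (-0.6996) and a locus spanning MCM9 and ASF1A (-0.6992) lay just outside. All 113 followers and all 49 opponents kept their sign within females and within castrated males, from which the correlation over all animals was itself built. In every one of the 20 settings that leave out 1 library, 34 of the 113 and 12 of the 49 stayed past the limit. The counts leaned on the extreme animals. Without female 7 and castrated male 10, the libraries farthest from the median FOS level, 32 loci followed and 8 opposed FOS.

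Of the AP-1 family, JUNB alone could be set against FOS. JUNB, a JUN family protein that dimerises with FOS, ran from 79.3 CPM (female 7) through a median of 253 CPM to 477 CPM (female 2) in females. In castrated males it ran from 117 CPM (castrated male 10) through a median of 333 CPM to 450 CPM (castrated male 3). The lowest JUNB library in each group was the lowest FOS library of that group, the highest was not, and the groups overlapped. Its r with FOS was 0.86 over 20 animals, 0.82 in females and 0.90 in castrated males, and 0.85 without animals 516 and 517. Per length JUNB averaged 158 FPKM, against 885 FPKM for FOS. FOSL1, a FOS relative that also pairs with JUN proteins, averaged 1.72 FPKM and lay below the CPM minimum. FOSB, FOSL2, JUN, JUND, JDP2 and BATF were not analysed here. Of the other leucine zipper factors, MAFF, a small MAF protein, had r = 0.52, and ATF3, a stress-induced repressor of the ATF family, had r = 0.47. ATF3 differed by group, at 0.21 in females and 0.85 in castrated males, and the difference was not tested. Female 4, with a low FOS level of 1230 CPM, held the highest ATF3 level, 522 CPM, and without it r was 0.75.

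Immediate early transcription factors had a higher median r with FOS than any other list examined with at least 5 members set against it. Of 20 listed, 12 had a locus and 11 reached the CPM minimum. All 11 had r above 0, against 59.1% of all loci, 9 had r of at least 0.5, against 8.71%, and the median was 0.60, against 0.08. Members of this list and of the lists that follow are described by these counts alone.

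EGR1, a zinc finger factor induced through SRF, had the highest r with FOS of all loci with a symbol, 0.93. It ran from 565 CPM (female 7) through a median of 979 CPM to 1558 CPM (female 9) in females and from 556 CPM (castrated male 10) through a median of 1072 CPM to 1500 CPM (castrated male 4) in castrated males. In both groups the lowest and the highest EGR1 library were those of FOS, and the groups overlapped. Within sex r was 0.94 in females and 0.93 in castrated males. Its slope was 0.65 log2 units per log2 unit of FOS, so EGR1 spanned less than FOS did.

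KLF4, a Krüppel-like zinc finger factor that is itself an early response gene, followed at r = 0.89, with a slope of 0.95. It ran from 119 CPM (female 7) through a median of 293 CPM to 983 CPM (female 9) in females and from 212 CPM (castrated male 10) through a median of 344 CPM to 611 CPM (castrated male 4) in castrated males. Female 9 stood far above all other animals, and the low end was again held by the libraries lowest in FOS. IER2, a small nuclear early response protein, had r = 0.78. It ran from 58.0 CPM (female 7) through a median of 94.9 CPM to 207 CPM (female 9) in females and from 46.0 CPM (castrated male 10) through a median of 112 CPM to 158 CPM (castrated male 6) in castrated males. CSRNP1, a nuclear protein of the AXIN1 up-regulated type, had r = 0.70, at the limit, and 0.63 without animals 516 and 517.

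The other factors of the list were looser. The orphan nuclear receptors NR4A2 and NR4A3 had r = 0.65 and 0.53, EGR3 and EGR2 had 0.60 and 0.52, and MYC, the growth regulator, had 0.58. NFKBIZ, an atypical inhibitor of NF-kappaB, had 0.24. NFIL3, a leucine zipper repressor with a role in the clock and in immune cells, had 0.00. KLF10 lay below the CPM minimum.

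**Figure D3:**
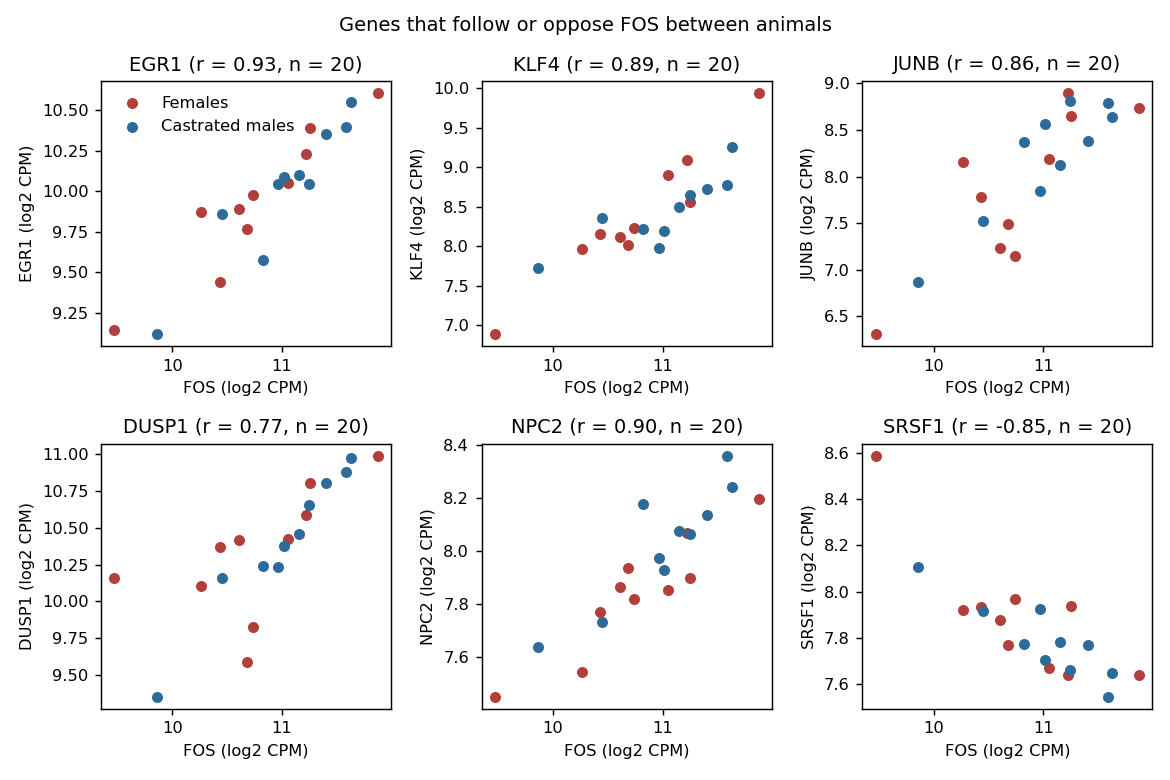
Log2 CPM of 6 genes against log2 CPM of FOS, a point per library, females in red and castrated males in blue, with r over 20 libraries in each title. EGR1, KLF4, JUNB, DUSP1 and NPC2 went up with FOS at r of 0.77 to 0.93, SRSF1 went down at r of -0.85, and the points of both groups lie along the same cloud.

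Early genes that feed back on the signal were more mixed. Of 25 listed, 11 had a locus and reached the minimum; 9 had r above 0, 5 had r of at least 0.5, and the median was 0.39. DUSP1, the phosphatase that inactivates MAP kinases, had r = 0.77 and rho = 0.90. It ran from 772 CPM (female 1) through a median of 1345 CPM to 2028 CPM (female 9) in females. In castrated males it ran from 655 CPM (castrated male 10) through a median of 1369 CPM to 2004 CPM (castrated male 4). Female 7, lowest in FOS, was below the female median in DUSP1, at 1143 CPM, but was not the lowest female. Within sex r was 0.60 in females and 0.98 in castrated males, a difference that was not tested.

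SGK1, a kinase of ion transport and cell survival that glucocorticoids and serum induce, had r = 0.77, with 0.90 in females and 0.54 in castrated males. It ran from 74.7 CPM (female 7) through a median of 167 CPM to 325 CPM (female 9) in females and from 131 CPM (castrated male 2) through a median of 190 CPM to 277 CPM (castrated male 4) in castrated males. The polo-like kinases PLK3 and PLK2 had r = 0.66 and 0.51, and IER3, which acts in cell survival, had 0.52. The NF-kappaB brakes TNFAIP3 and NFKBIA had 0.39 and 0.25, the stress sensor GADD45B 0.25 and the receptor signalling inhibitor SPRY2 0.21. Below 0 were DUSP4, another MAP kinase phosphatase, at -0.10 and ZFP36L1, which promotes decay of AU-rich messenger RNAs, at -0.17. ZFP36L1 was highest in female 7, at 687 CPM, and its r was -0.68 in females and 0.52 in castrated males, which was not tested.

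Secreted and surface products of the early response all had r above 0 among the 11 members that reached the minimum, of 13 with a locus and 16 listed. Their median was 0.45, 4 reached 0.5 and none reached the limit of 0.7. ADAMTS4, a protease that cleaves aggrecan and versican, had 0.61. THBS1, the matrix protein thrombospondin-1, had 0.56, the chemokine CXCL2 0.54, and CCN1, a matricellular protein, 0.51. ADAMTS1 had 0.49, the growth factor HBEGF 0.45, CCN2 0.44 and the prostaglandin synthase PTGS2 0.41. The monocyte attractant CCL2 had 0.20 and the matrix protein TNC, whose locus spans several identifiers, 0.15. THBS1 ran from 355 CPM (female 7) to 2642 CPM (female 2) in females and from 362 CPM (castrated male 9) to 2046 CPM (castrated male 4) in castrated males. The cytokine IL6 and the growth factor AREG lay below the minimum.

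Over the 5 early gene lists together, 82 symbols including FOS, 41 genes other than FOS had a locus and 36 reached the minimum. Of these 36, 34 had r above 0, 20 had r of at least 0.5 and 7 reached 0.7: EGR1, KLF4, JUNB, IER2, SGK1, DUSP1 and CSRNP1. Without female 7 and castrated male 10, r was 0.66 for IER2, 0.64 for SGK1 and 0.66 for CSRNP1. EGR1, KLF4, JUNB and DUSP1 stayed past 0.7, with JUNB lowest at 0.72. The median r of the 36 was 0.52, with 0.46 in females and 0.54 in castrated males, 0.44 without animals 516 and 517, and 0.43 without the 2 animals of extreme FOS level. The median over all loci was 0.08, and 0.01 with upper-quartile scaling, where the list's median was 0.49. Among themselves the 36 genes had a median pairwise r of 0.48 over 630 pairs, so their likeness was not to FOS alone. KLF4 and SGK1, for example, had r = 0.91 with each other.

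**Figure D4:**
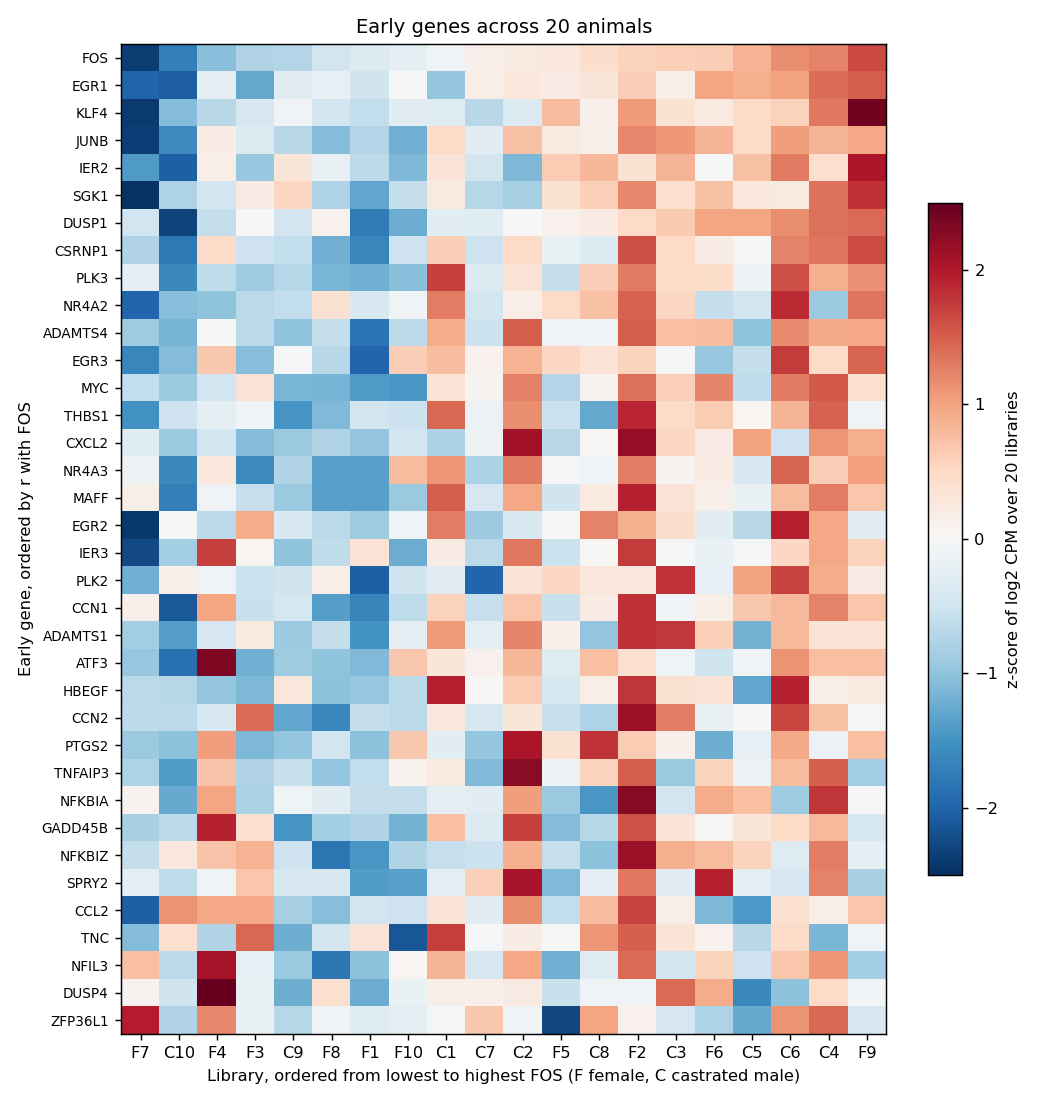
z-scores of log2 CPM for FOS and early genes (rows, ordered by r with FOS) over 20 libraries (columns, ordered from lowest to highest FOS; F female, C castrated male). Rows near the top, such as EGR1 (r = 0.93) and KLF4 (0.89), run from blue to red with FOS; rows at the bottom, such as ZFP36L1 (-0.17), do not, and female 2 is high for many genes from THBS1 downwards.

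None of the 36 was called between the sexes in edgeR, where 0% of all loci were, and 1 had an unadjusted p under 0.05. The log2 difference lay below 0 for 30 of the 36, against 58.2% of all loci set against FOS, and again for 30 with upper-quartile scaling, where 49.2% of loci did. None was called for age in edgeR. The slope lay below 0 for 31 of 36, against 49.8% of loci, and 8 had an unadjusted p under 0.05, a share of 5.36% over all loci. With upper-quartile scaling 31 of the 36 again had a slope below 0. The 36 genes moved together, at a median pairwise r of 0.48, so their signs, for sex as for age, are not independent. Female 2, the youngest female at 235 days, was the highest female in THBS1, CXCL2, MAFF and ADAMTS4, among others. Slopes of the 36 without female 2 are not given here. Slopes above 0 were found for FOS itself (0.05) and, of the 36, for EGR1 (0.09), ZFP36L1 (0.07), DUSP1 (0.07), DUSP4 (0.015) and PLK2 (0.005), none of them called. All 11 secreted products had a slope below 0, of which CCL2 had the steepest, -1.25 per 10 days (SE 0.311, edgeR adjusted p = 0.823).

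Transcripts of factors listed as controlling FOS had no common direction with its level. The activity of their proteins was not measured. Of 23 listed genes for SRF, its partners, CREB cofactors and the kinases above them, 14 reached the minimum. Of these, 8 had r above 0, none reached 0.7 in either direction, and the median was 0.06. SRF itself had r = 0.59, the MAP kinase kinase MAP2K2 0.51, and PRKACA, a catalytic subunit of protein kinase A, -0.39. Genes commonly described as AP-1 targets in connective tissue had r above 0 in 6 of 7, with a median of 0.25 and 1 at r of at least 0.5. That member was VIM, the intermediate filament vimentin, at 0.76. It ran from 3351 CPM (female 1) through a median of 4266 CPM to 6425 CPM (female 9) in females and from 3462 CPM (castrated male 10) through a median of 4645 CPM to 6162 CPM (castrated male 5) in castrated males.

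Genes of other stress programmes were set against FOS in the same way. Of 8 heat shock genes, 1 had r above 0 and the median was -0.20, but the median was 0.05 by Spearman's rho and -0.05 without female 7 and castrated male 10. It was -0.45 in females and 0.31 in castrated males, a difference that was not tested. HSPH1, a co-chaperone of HSP70 singled out after its values were seen, had 57.5 to 3237 CPM in females, against 101 to 1154 CPM in castrated males, and its highest library, female 4, was low in FOS. Of 11 hypoxia genes, 7 had r above 0 and 1 had r of at least 0.5, with a median of 0.12. ADM, the vasodilator peptide adrenomedullin, had the highest r of these, 0.72, and ANKRD37 the lowest, -0.47. Of 9 glucocorticoid-responsive genes, 7 had r above 0, against 59.1% of all loci, 3 had r of at least 0.5, against 8.71%, and the median was 0.25, against 0.08. That list shares SGK1 and DUSP1 with the early lists, and ANGPTL4, a secreted inhibitor of lipoprotein lipase, had r = 0.65.

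**Figure D5:**
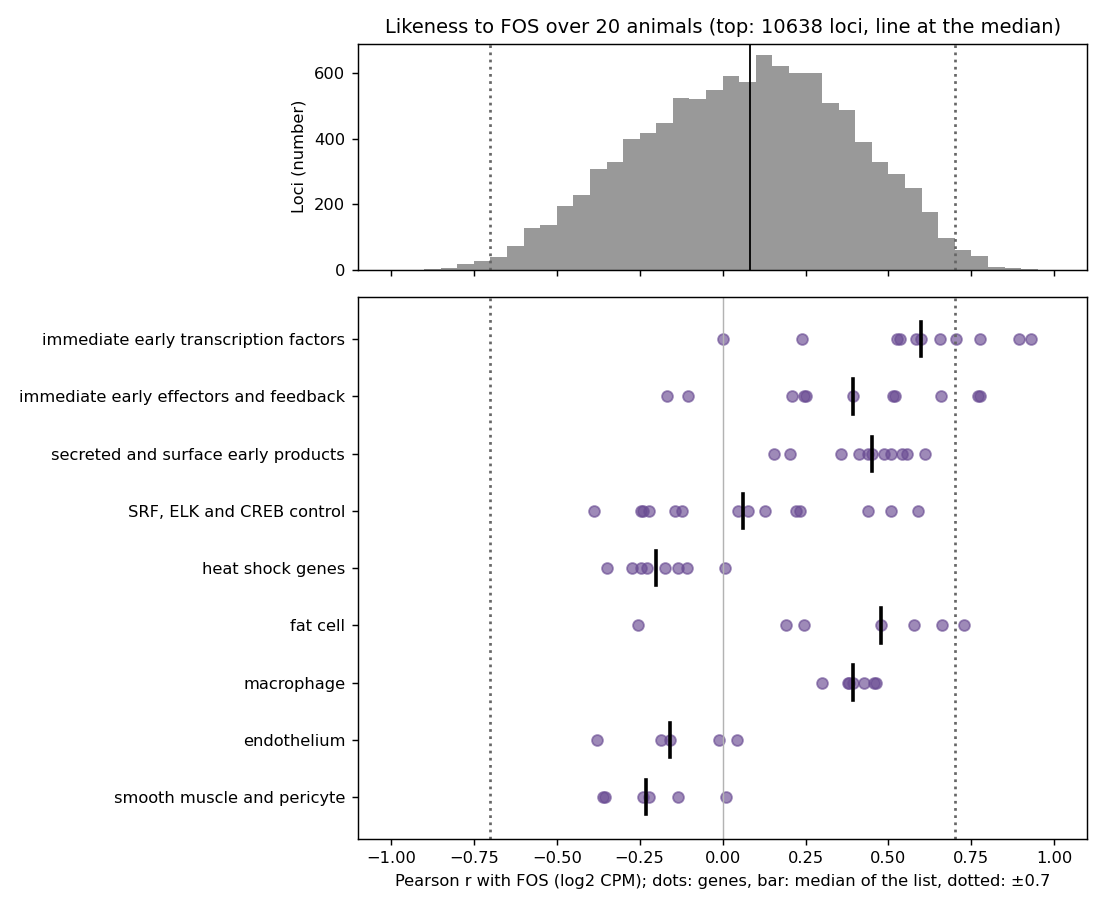
Top, the number of loci by Pearson r with FOS over 20 libraries, for 10638 loci with a line at the median of 0.08; bottom, r of each member of 9 gene lists (dots) with the list's median (bar), and dotted lines at r of -0.7 and 0.7. The immediate early transcription factors have a median of 0.60, the heat shock genes -0.20 (0.05 by Spearman's rho), and the macrophage markers lie between 0.30 and 0.46.

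Markers of cell types moved with FOS in part. In such bulk tissue, fewer cells of a type and less RNA per cell cannot be told apart. The summed level of the fat cell markers had r = 0.60 with FOS, 0.32 in females and 0.91 in castrated males. The library labelled castrated male 10 had the lowest sum and the lowest FOS level of its group. Without animals 516 and 517, r was 0.52 over 18 animals, 0.35 in 9 females and 0.79 in 9 castrated males. Among the members, PLIN4, a lipid droplet coat protein, had r = 0.73, LIPE, hormone-sensitive lipase, 0.66, PNPLA2, the triglyceride lipase of fat cells, 0.58, and PLIN1, whose locus spans several identifiers, 0.48. CIDEC, a lipid droplet protein named after its values were seen, went the other way at -0.26, with -0.79 in females and 0.37 in castrated males. Of a wider list of 12 adipocyte factors, which shares members with the markers, 9 had r above 0 and the median was 0.23, with 0.01 in females and 0.51 in castrated males. CA3, a carbonic anhydrase, had the lowest r of that list, -0.50, with -0.93 in females and 0.12 in castrated males. These differences between the sexes were not tested. ADIPOQ, AQP7, FABP4 and LPL were not analysed here.

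The summed macrophage markers, 7 of 10 with a locus, had r = 0.39 with FOS, 0.65 in females and 0.13 in castrated males. Without animals 516 and 517, r was 0.67 in 9 females and 0.10 in 9 castrated males. The sum was 178 to 508 raw CPM in females, against 261 to 1239 raw CPM in castrated males, with female 7 lowest. Members lay between 0.30 and 0.46, among them CSF1R, the macrophage growth factor receptor, at 0.46. The most abundant member, at a mean of 131 CPM and r = 0.46, was the CD68 locus. That locus also spans the identifier of EIF4A1, so the sum is not of macrophage markers alone. T and NK cell markers, 6 of 8 with a locus, had a summed r of 0.26, with 0.58 in females and -0.20 in castrated males, at 23.4 to 64.6 raw CPM in females, against 29.3 to 127 raw CPM in castrated males. For them r without animals 516 and 517 was 0.62 in 9 females and -0.42 in 9 castrated males. The summed endothelial markers, 5 of 10 with a locus, had r = -0.03, which combined 0.46 in females with -0.55 in castrated males. Without animals 516 and 517 these were 0.46 in 9 females and -0.61 in 9 castrated males. PECAM1, named after its values were seen, was the most abundant member, at a mean of 1324 CPM. Its own r was 0.47 in females and -0.56 in castrated males. In females KDR had r = 0.70 and ERG -0.24, and the median of the 5 members was -0.07. None of these differences between the sexes was tested. Summed r was -0.16 for smooth muscle and pericytes (6 of 8 with a locus), 0.10 for fibroblasts (6 of 8) and 0.10 for neutrophils (2 of 6). It was -0.12 for mast cells (4 of 6) and -0.17 for red cells (3 of 6). The neutrophil markers went opposite ways, S100A8 at -0.22 and CSF3R at 0.40. Fibroblast members ran from LUM at -0.32 to FBLN1 at 0.62. Skeletal muscle markers, 2 of 10 with a locus, reached at most 4.06 raw CPM in females, against 0.966 raw CPM in castrated males. The epidermal markers, 3 of 6 with a locus, summed to 12.05 to 20.04 raw CPM in females, against 11.34 to 17.75 raw CPM in castrated males, with r = -0.54. Most of that sum was KRT10, one of the 12 genes of lowest r with a symbol, at a mean of 13.5 CPM and r = -0.77. DSP, named after its values were seen, averaged 1.99 CPM and went the other way at r = 0.29. No marker with a locus was at 0 in all libraries. The part of these cell types in the likeness to FOS was not tested.

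Genes outside the early lists also followed FOS closely. NPC2, a lysosomal cholesterol-binding protein, had r = 0.90. It ran from 175 CPM (female 7) through a median of 232 CPM to 293 CPM (female 9) in females and from 199 CPM (castrated male 10) through a median of 269 CPM to 328 CPM (castrated male 6) in castrated males. The range was narrow, with a slope of 0.35 log2 units per log2 unit of FOS, and the order of animals was close to that of FOS. Within sex r was 0.92 in females and 0.90 in castrated males. Other genes among the 12 of highest r with a symbol were KIAA2013 (0.83), SMPD2, a neutral sphingomyelinase (0.82), GLMP, a glycosylated lysosomal membrane protein (0.81), PABPC4, a cytoplasmic poly(A)-binding protein (0.81), RETREG2, of the reticulophagy regulator family (0.80), FGGY, a carbohydrate kinase (0.80), PLBD2, a lysosomal phospholipase B-like protein (0.79), and DOLK, dolichol kinase (0.79). Without female 7 and castrated male 10, r was below 0.7 for KIAA2013, GLMP, PABPC4, FGGY and DOLK. On log2(FPKM + 0.1), r for KIAA2013 was 0.42. FGGY averaged 6.58 CPM, near the minimum of 5.

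NPC2 and FOS lie on the same chromosome, 7, with 14 protein-coding genes between them in the RefSeq gene order of Sscrofa11.1, a later build than that of the authors. The 6 genes between them that reached the CPM minimum had r of -0.11 to 0.59 with a median of 0.20. Nearer to FOS, NEK9 had r = 0.17 and FLVCR2 0.16. On the other side, with 8 genes between it and FOS, GPATCH2L, named after its values were seen, was among the opponents at r = -0.74.

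The lowest r with a symbol belonged to SRSF1 and LUC7L3. SRSF1, a splicing factor rich in serine and arginine, had r = -0.85. It ran from 199 CPM (female 2) through a median of 239 CPM to 385 CPM (female 7) in females and from 187 CPM (castrated male 6) through a median of 219 CPM to 275 CPM (castrated male 10) in castrated males. The libraries lowest in FOS were the highest here in both groups, and the remaining animals lay close together. LUC7L3, a protein tied to the U1 particle of the spliceosome, had r = -0.85. It ran from 188 CPM (female 2) through a median of 253 CPM to 433 CPM (female 7) in females and from 175 CPM (castrated male 4) through a median of 246 CPM to 351 CPM (castrated male 10) in castrated males. PNN, pinin, a desmosome-associated and nuclear speckle protein, had r = -0.79, again with female 7 highest at 425 CPM. Without female 7 and castrated male 10, r was -0.72 for SRSF1, -0.68 for LUC7L3 and -0.64 for PNN. On log2(FPKM + 0.1) it was -0.63 for SRSF1, -0.55 for LUC7L3 and -0.44 for PNN.

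The remaining genes among the 12 of lowest r with a symbol were COPS5, the catalytic subunit of the COP9 signalosome (-0.81), TTC28 (-0.78), KRT10, an epidermal keratin (-0.77), WDFY1 (-0.76), RPRD1A, which binds the tail of RNA polymerase II (-0.75), ADPRM (-0.75), KCNAB1, a potassium channel beta subunit (-0.75), OGT, the O-GlcNAc transferase (-0.74), and MORC2, a chromatin ATPase (-0.74). Without female 7 and castrated male 10, r of these remaining genes ran from -0.67 for KRT10 to -0.50 for RPRD1A, so none stayed past the limit. On log2(FPKM + 0.1) it ran from -0.73 for COPS5 to -0.46 for WDFY1. COPS5 averaged 7.45 CPM, ADPRM 8.40 CPM, KCNAB1 10.4 CPM and KRT10 13.5 CPM, near the minimum of 5. Of the 49 opponents 20 had a symbol and 19 had no Ensembl identifier; of the 113 followers 89 had a symbol and 4 had no identifier.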

How the data were processed

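Polyadenylated RNA of 20 backfat samples was sequenced as paired reads of 100 bp, per the labels' protocols. Tools listed in the submitters' processing notes, with no role for each, were Cufflinks 2.1.1, TopHat2 2.0.8, DESeq2 and Bowtie2 2.1.0.0, on build Sscrofa10.2. No source used here gives the counting tool or the strand setting. Raw read counts were deposited by the authors for 23483 Cufflinks loci. The authors also deposited FPKM for the same loci and their isoforms. Symbols were matched by Ensembl identifier and named 9360 loci.

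Tests on counts used quasi-likelihood fits in edgeR 4.0.16 (TMM, filterByExpr, 21587 loci, Benjamini-Hochberg, 0.05; R 4.3.3), after a test on simulated data. DESeq2 1.42.0 on counts and limma 3.58.1 on log2(FPKM + 0.1) were alternatives. Relations to library measures used 100000 permutations (scipy 1.17.1). Alternatives changed scaling, filter, unit, covariates, likeness measure and libraries. Named genes are measured early-list members, the 12 highest and 12 lowest in r, and up to 4 members per other list. FOS, the lists and the rules were chosen with earlier results of these data known. Total counts of 25754778 to 51248122 bound the precision. Some list members are counted but not reported by name here.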

Additional observations from a re-analysis of the deposited data

Results flagged for a closer look

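Of 28 sets of 10 values, 14 genes in each of the 2 groups, 7 held a library far from the rest of its group by Dixon's criterion. The criterion was applied to CPM, not to the log2 CPM used for spread and likeness. A high value stands out more on the CPM scale, and flags on the log2 scale are not given here. Chance flags about 1 in 20 such sets when values are normally distributed and genes are chosen without regard to their values. The genes here were not chosen so, and the distribution of their values was not checked. Apart from FOS, the genes shown had a high or low r with FOS, or, for HSPH1, were singled out after their values were seen. Flags in the animals of extreme FOS level and in HSPH1 can follow from that choice. The number of flags therefore cannot be set against the chance rate. Genes that move together also give flags that are not independent. In females, female 9 stood apart in KLF4, at 983 CPM with the nearest female at 546 CPM, and in IER2, at 207 CPM with the nearest at 124 CPM. This is the female of highest FOS level. Female 7, the animal of lowest FOS level, stood apart in LUC7L3, at 433 CPM with the nearest at 291 CPM, in SRSF1, at 385 CPM with the nearest at 251 CPM, and in PNN, at 425 CPM with the nearest at 293 CPM. HSPH1 stood apart in both groups, in female 4 at 3237 CPM with the nearest female at 1569 CPM, and in castrated male 2 at 1154 CPM with the nearest castrated male at 432 CPM. FOS itself met the criterion in neither group.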

How the results depend on the processing

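The FOS difference between the sexes kept its sign and missed the threshold under all 7 alternatives (-0.28 to -0.19 on the log2 scale) and with each library left out (-0.37 to -0.11). The age slope was called nowhere but turned to -0.0133 with no sex term; with 1 library left out it ran from -0.0255 to 0.16, below 0 without castrated male 5, castrated male 9 or female 6. The spread ran from 0.56 to 0.60. The count of followers moved from 113 to 32 without the 2 libraries of extreme FOS level and to 65 with upper-quartile scaling, and ran from 82 (without castrated male 10) to 171 (without female 9) with 1 library left out. The count of opponents moved from 49 to 30 by Spearman's rho, 21 on log2(FPKM + 0.1), 8 without the 2 extreme libraries and 79 at a mean CPM of at least 1, and ran from 36 (without female 7) to 83 (without female 9), with 80 without female 4. Without animals 516 and 517 they were 82 and 52. Spearman's rho turned the sign for total count (-0.0286), loci detected (-0.0150) and age (0.0644), and leaving out the 2 farthest libraries did so for loci detected (-0.0208); none of these was called. The cause of these changes was not tested. No paired analysis was possible because replicate numbers were given in order of deposit.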

Other observations

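Gene families defined by symbol stem after the likeness values had been seen gave a further description, with no test. Of 9 cathepsins, lysosomal proteases, 7 had r above 0 with FOS and the median was 0.41, with 0.46 in females and 0.22 in castrated males; without the 2 libraries of extreme FOS level it was 0.19. Of 8 subunits of the lysosomal proton pump, 7 had r above 0 with a median of 0.32, and 0.06 without those 2 libraries. Of the 6 serine and arginine-rich splicing factors, 2 had r above 0 with a median of -0.28, from SRSF1 at -0.85 to SRSF7 at 0.49. Without those 2 libraries the median was -0.05. Of 21 RNA-binding motif proteins 9 had r above 0, with a median of -0.12, and -0.02 without those 2 libraries. Of 8 heterogeneous nuclear ribonucleoproteins 5 did, with a median of 0.03, and -0.05 without those 2 libraries. Of 16 collagens 12 had r above 0 with a median of 0.27, and -0.01 without those 2 libraries. Of 15 proteasome subunits 10 had r above 0 with a median of 0.20, and 0.08 without those 2 libraries. Of 41 chaperones of the HSP and DNAJ families 20 did, with a median of -0.01, and 0.02 without those 2 libraries. Of 116 zinc finger genes of the ZNF series 63 did, with a median of 0.06, and -0.002 without those 2 libraries. Of 24 cytosolic ribosomal proteins 14 had r above 0 with a median of 0.07, at -0.14 in females and 0.40 in castrated males, and 0.20 without those 2 libraries. Medians over all 10638 loci were 0.08 over 20 libraries, 0.07 in females and 0.08 in castrated males, and 0.05 without the 2 libraries. Of all these loci 59.1% had r above 0, the share to set beside each count in this paragraph.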
